A study of Homo sapiens with 52 samples.

Results

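The transcripts described here are the mRNAs of cytosolic ribosomal proteins in HEK293T, a human cell line derived from embryonic kidney. They were chosen as 1 main transcript per ribosomal protein gene from a list of 53 Ensembl transcript identifiers, and all 53 were found among the 226882 transcripts of the deposited count table. The rule for membership is gene identity and uses no measured value, although the group was proposed with earlier results of these data known. The study asked how translation changes when eIF2D, MCTS1 or DENR is removed, and which mRNAs are held by small (40S) ribosomal subunits bound to each of these proteins. By its title, the study concerns eIF2D as a factor that recycles 40S subunits. MCTS1 and DENR act as a pair and share domains with eIF2D.

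The table held 42 libraries in 4 assays, 2 libraries per group except where stated. RNA-seq measured polyadenylated mRNA and Ribo-seq sequenced the pieces of mRNA shielded by ribosomes from RNase I in the presence of cycloheximide. Both assays were made in wild type (WT) cells, in MCTS1 knockout (KO) lines #1 and #2, after a control siRNA (siControl), and after DENR siRNAs (siDENR) #1 and #2. TCP-seq, or translation complex profiling, recovers mRNA fragments bound by translation complexes. It was made in 4 WT libraries, 2 of each of 2 eIF2D KO lines and 2 of each of 2 MCTS1 KO lines. In 40S Sel-TCP-seq such complexes were selected as 40S through V5-tagged eIF2D, MCTS1 or DENR. No DENR KO line had a library in the table, and no eIF2D KO RNA-seq or Ribo-seq library was analysed. Each KO line is a single line, and no label states that replicates were separate cultures. The p-values then reflect only the spread among these libraries, part or all of which could be technical. A further 10 labelled TCP-seq samples, with an empty vector or with eIF2D forms put back, were not analysed here.

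As background, each ribosome is built from ribosomal RNA and a full set of small and large subunit proteins, so cells make these proteins in matched amounts. Their mRNAs are short, abundant and usually heavily translated. Most vertebrate ribosomal protein mRNAs begin with a 5′ terminal oligopyrimidine tract, or TOP, which is a cytidine at the first transcribed base followed by pyrimidines. Signalling through mTORC1 raises the translation of TOP mRNAs, and the RNA-binding protein LARP1 binds the cap and the tract and represses them when mTORC1 is off.

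The start of these genes shows the tract. RefSeq promoter windows (GRCh38.p14) were read for 63 genes with ribosomal protein symbols, and 47 of the 63 (74.6%) had a window whose first transcribed base is C followed by at least 4 pyrimidines (C or T). This was so for 19 of 25 small subunit genes (76%) and 28 of 38 large subunit genes (73.7%). Among all 27305 genes of the same reference, 1404 (5.14%) had such a start. The examples below show 15 bases before and 15 bases from the annotated start on the coding strand, and capitals mark the C and the pyrimidines that follow it. RPS6, RPSA and RPS3 belong to the small subunit, RPL7A, RPL13A and RPLP2 to the large subunit. RPL4 and RPS4X are shown because their annotated start is not a C, and each has a pyrimidine run a few bases further on. The examples were chosen after their letters had been seen.
RPS6, chr9:19380222-19380251, minus strand: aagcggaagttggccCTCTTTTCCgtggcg
RPSA, chr3:39406705-39406734, plus strand: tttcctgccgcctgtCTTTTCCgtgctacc
RPS3, chr11:75399503-75399532, plus strand: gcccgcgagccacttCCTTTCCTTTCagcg
RPL7A, chr9:133348203-133348232, plus strand: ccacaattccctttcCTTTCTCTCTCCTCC
RPL13A, chr19:49487593-49487622, plus strand: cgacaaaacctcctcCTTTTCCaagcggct
RPLP2, chr11:809952-809981, plus strand: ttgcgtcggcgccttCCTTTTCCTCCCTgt
RPL4, chr15:66504841-66504870, minus strand: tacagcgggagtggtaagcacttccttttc
RPS4X, chrX:72277234-72277263, minus strand: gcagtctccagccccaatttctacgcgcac

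The files name transcripts by identifier only, and the reference tables used here paired 0 of the 53 identifiers with a gene. The sequences above therefore describe the gene family and are not tied to a measured row. For the same reason the transcripts are given by identifier, 40S proteins could not be set against 60S proteins, and levels were not compared per length. The targeted genes could not be checked in their libraries. Many ribosomal protein genes have near-identical pseudogenes, and how reads that match several places or overlap several transcripts were counted is not stated in the labels or files, so single values are uncertain to that extent. No other row repeated the counts of any of the 53 transcripts in all 42 libraries, but 27642 of the 218062 rows with a count repeated another row. The rows that make up the background percentages below are therefore not independent of each other.

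Total counts per library were 76967099 to 301214608 in RNA-seq, 16370112 to 193940882 in Ribo-seq, 1609303 to 5053637 in TCP-seq and 356019 to 2582917 in Sel-TCP-seq. The lowest count of any of the 53 transcripts was 2425 in an RNA-seq library, 29 in Ribo-seq, 42 in TCP-seq and 7 in Sel-TCP-seq. All 53 passed the filter on low counts in every comparison. Levels are CPM, the counts scaled to the same library total with trimmed-mean factors.

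In WT cells the ribosomal protein transcripts were among the most abundant rows of every assay. Their median percentile among rows with a count was 99.62 in RNA-seq, 99.54 in Ribo-seq and 99.46 in TCP-seq, and 50, 44 and 47 of the 53 stood in the top 1% of rows. Mean WT levels ran from 29.9 to 668 CPM in RNA-seq with a median of 162, from 2.95 to 458 CPM in Ribo-seq with a median of 155, and from 30.8 to 332 CPM in TCP-seq with a median of 140. Transcript ENST00000343262.9 had the highest RNA-seq level, at 668 and 668 CPM in the 2 WT libraries, and the highest TCP-seq level, at 345, 406, 276 and 302 CPM in the 4. Transcript ENST00000245458.10 had the lowest RNA-seq level, at 30.7 and 29.1 CPM. In Ribo-seq the highest was ENST00000316084.10, at 458 ± 28.9 CPM (SD, n = 2), and the lowest was ENST00000356464.10, at 2.60 and 3.30 CPM.

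**Figure D1:**
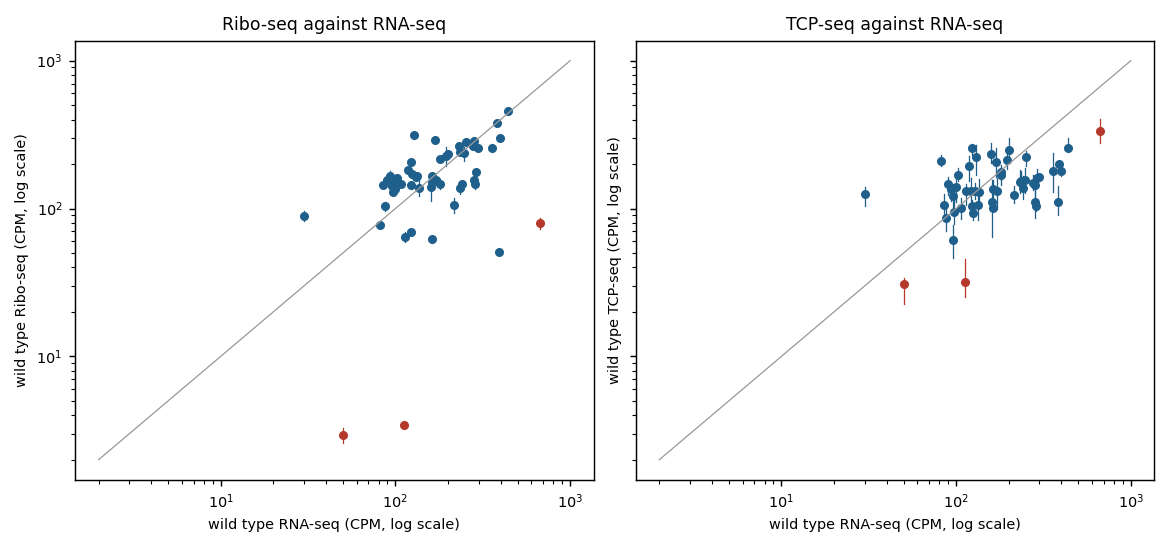
Mean level of each of the 53 ribosomal protein transcripts in wild type Ribo-seq (left) and TCP-seq (right) against wild type RNA-seq, in CPM on log axes. Bars span the lowest to the highest library and the grey line marks equal CPM. Red points are the 3 transcripts with the lowest ratio of Ribo-seq to RNA-seq, 2 of which lie near 3 CPM in Ribo-seq.

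The ratio of Ribo-seq to RNA-seq had a median over these transcripts close to that of the mean read, and it was very low for a few. The log2 ratios between assays used counts per library total, without the trimmed-mean factors. In WT cells the Ribo-seq to RNA-seq ratio had a median of 0.0099 over the 53, with quartiles of −0.50 and 0.41. The median over all 114974 rows with a ratio was −0.38. Of the 53, 38 stood above the median of all rows and 19 above its upper quartile. The same ratio in siControl cells had a median of −0.21 over the 53 and −0.30 over all rows, and 30 of the 53 stood above that median. In siControl 8 stood above the upper quartile of all rows and 11 under the lower quartile, where 5 stood in WT.

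The lowest ratio belonged to ENST00000311549.10, which had 112 and 112 CPM in WT RNA-seq but 3.64 and 3.24 CPM in WT Ribo-seq, a log2 ratio of −5.05. Next were ENST00000356464.10, with a log2 ratio of −4.10, and ENST00000343262.9, with −3.09. ENST00000343262.9 had 72.3 and 86.8 CPM in WT Ribo-seq, far under its RNA-seq level. In TCP-seq relative to RNA-seq the gap was smaller, with log2 ratios of −1.79, −0.68 and −0.995 for these 3 transcripts in that order. The low Ribo-seq level recurred in each of the 12 Ribo-seq libraries, where ENST00000311549.10 had 1.92 to 3.85 CPM. Whether short fragments that also match gene copies were dropped for these 3 was not tested. At the other end, ENST00000245458.10 had the highest ratio of the 53, with 82.9 and 96.0 CPM in WT Ribo-seq and a log2 ratio of 1.56.

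The ribosomal protein transcripts together took between 0.627% and 1.26% of the counts of every library. This share covers only the listed transcripts, over a total summed across all transcript rows. It is not the share of all ribosomal protein mRNA. The listed transcripts held 0.948% to 1.26% of counts in RNA-seq, 0.794% to 0.930% in Ribo-seq, 0.709% to 1.04% in TCP-seq and 0.627% to 1.02% in Sel-TCP-seq. Within RNA-seq the lowest pair was MCTS1 KO #1 (0.948% and 0.976%) and the highest was siDENR #1 (1.26% and 1.23%). In Ribo-seq the lowest pair was siControl (0.803% and 0.794%). In Sel-TCP-seq the 2 eIF2D-V5 libraries (0.627% and 0.683%) lay under all 4 libraries of the other proteins.

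**Figure D2:**
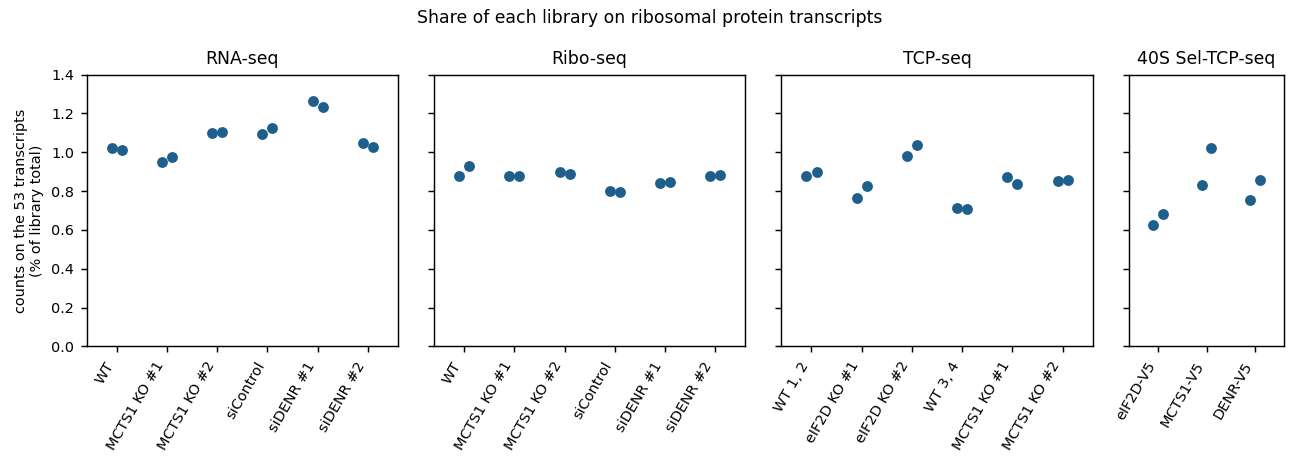
Percent of each library's counts that fell on the 53 ribosomal protein transcripts, by assay and group, 1 point per library on an axis from 0. RNA-seq runs from 0.948% in MCTS1 KO #1 to 1.26% in siDENR #1, and the eIF2D-V5 libraries are the lowest pair of Sel-TCP-seq.

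The heat map gives the level of each transcript in every library. The clones and siRNAs are described one by one below, before their mean.

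**Figure D3:**
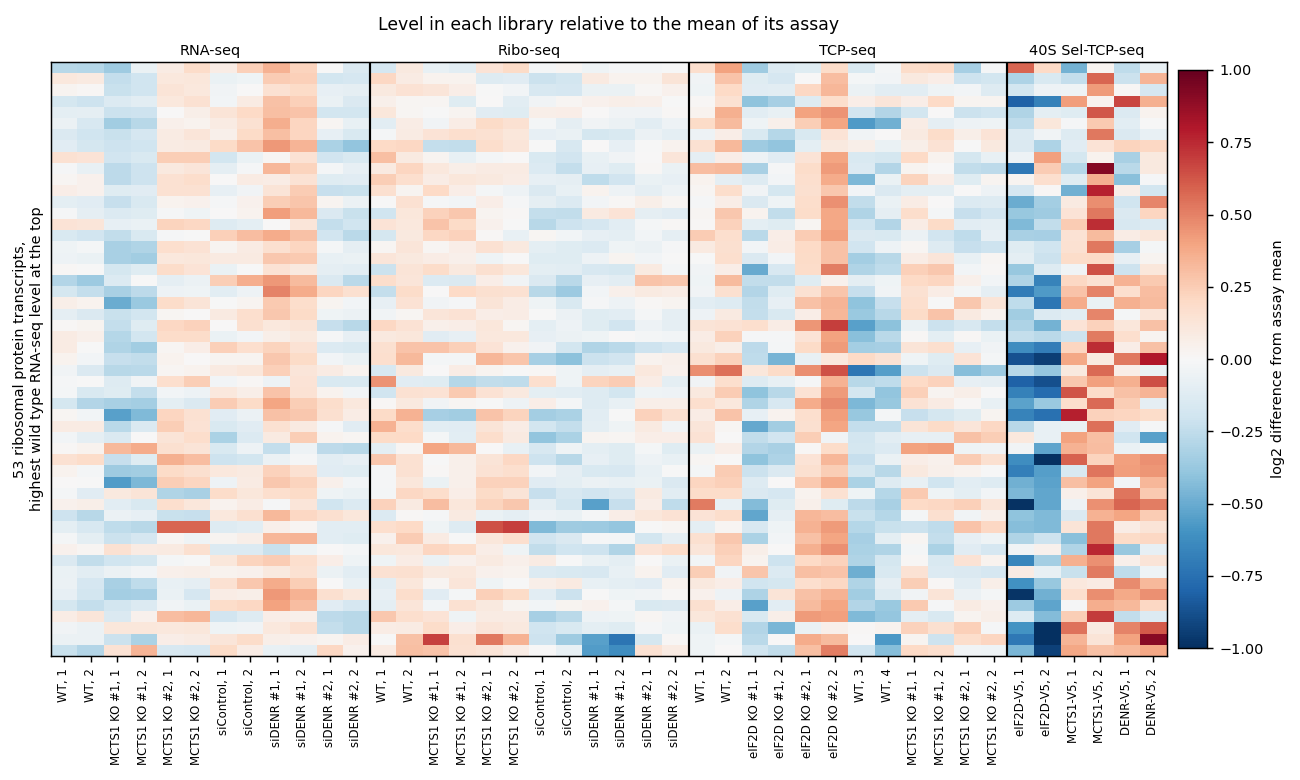
Level of the 53 ribosomal protein transcripts (rows, highest wild type RNA-seq level at the top) in the 42 libraries (columns), as the log2 difference from the transcript's mean over the libraries of that assay, with values past 1 in either direction drawn at the end of the colour scale. Columns of 1 group resemble each other, most rows are red in siDENR #1 RNA-seq and in eIF2D KO #2 TCP-seq, and most are blue in MCTS1 KO #1 RNA-seq and in eIF2D-V5 Sel-TCP-seq.

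Loss of MCTS1 was first followed at the mRNA level, where the 2 KO lines went opposite ways. Line #1 was also sequenced deeper, with RNA-seq totals of 301214608 and 150951436. Those of WT were 79851240 and 87469529, and those of #2 were 82864959 and 89789500. Ribo-seq totals were 193940882 and 148159238 in #1, 25785993 and 53386368 in WT, and 29624164 and 28668241 in #2. Whether depth bears on the difference between the lines was not tested. In MCTS1 KO #1, 31 of the 53 ribosomal protein transcripts fell and 7 rose against WT, where 21.7% of all 131951 rows fell and 20.5% rose. Their median log2 change was −0.15. In MCTS1 KO #2, 36 rose and 1 fell, where 7.39% of all rows rose and 7.51% fell, and the median was 0.13. The lines themselves differed for 49 of the 53, with 45 lower in #1 than in #2 and a median log2 difference of −0.28, against 45.8% of all rows. Since both lines were set against the same 2 WT libraries, this direct difference is the value free of the controls. The 37 calls in #2 became 19 and 22 without its replicates 1 and 2, and 22 without WT replicate 2.

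The mean of both lines left 14 transcripts higher and 12 lower, where 11.4% and 13.5% of all rows were, with a median of −0.023 and a range of −0.18 to 0.30. The largest mean rise was that of ENST00000245458.10, the transcript of lowest mRNA level. It had 30.7 and 29.1 CPM in WT, 39.7 and 45.5 CPM in MCTS1 KO #1 and 32.1 and 31.8 CPM in #2. Its log2 change was 0.30 ± 0.043 (SE, adjusted p = 2.59e-07) for the mean of the lines, and #1 stood apart from both WT and #2. ENST00000274242.10 had 105 and 100.0 CPM in WT, 94.1 and 92.5 CPM in #1 and 168 and 168 CPM in #2. Its mean log2 change of 0.29 ± 0.032 (adjusted p = 1.77e-11) came from #2, where it was 0.71, while #1 was lower than WT at −0.13.

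The 2 largest mean falls were carried by MCTS1 KO #1. ENST00000312037.6 had 182 and 179 CPM in WT, 124 and 135 CPM in #1 and 198 and 191 CPM in #2, a mean log2 change of −0.18 ± 0.032 (adjusted p = 5.22e-06). ENST00000314138.11 had 167 and 158 CPM in WT, 128 and 124 CPM in #1 and 160 and 165 CPM in #2, a mean change of −0.18 ± 0.031 (adjusted p = 5.86e-06). In both, the libraries of #1 lay under those of WT and #2, which overlapped or lay close. The number of transcripts called for the mean of the lines was 26 with all libraries and 14 without replicate 2 of MCTS1 KO #2, 17 without WT replicate 1 and 16 without WT replicate 2. The median of the 53 was 0.014 without WT replicate 1, so its sign is not fixed by these libraries.

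Ribosome-protected fragments were compared next. In Ribo-seq 0 of the 53 rose and 5 fell for the mean of both lines by edgeR's quasi-likelihood test, where 2.72% of all 115412 rows rose and 3.37% fell. At unadjusted p under 0.05 there were 12 of the 53 and 20.9% of all rows, a share near the background. The median was −0.0075 with a range of −0.42 to 0.30. The lines differed for 12 of the 53, against 18.6% of all rows, and for 3 to 24 when 1 library was left out in turn. ENST00000491306.5 fell the most of the 2 named, with 153 and 171 CPM in WT, 106 and 105 CPM in #1 and 164 and 157 CPM in #2 (log2 change −0.32 ± 0.063, adjusted p = 0.00270). Only #1 lay apart from WT for it. ENST00000253788.11 had 331 and 294 CPM in WT, 243 and 241 CPM in #1 and 285 and 274 CPM in #2 (−0.27 ± 0.060, adjusted p = 0.00744), and both lines lay under WT.

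The 5 calls in Ribo-seq rested on single libraries. They became 21, with 10 higher, without WT replicate 2, 3 without either library of MCTS1 KO #1, and 1 and 0 without replicates 1 and 2 of MCTS1 KO #2. They became 9 with no filter on low counts. The shares of all rows called in these fits are not given, so the counts show only how the number moved. The call of ENST00000253788.11 was lost without either library of MCTS1 KO #2 and that of ENST00000491306.5 without its replicate 2. The medians of lines #1 and #2 were −0.049 and −0.017 with all libraries, and 0.00077 and 0.040 without WT replicate 2.

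Translational efficiency (TE) is the change in Ribo-seq relative to the change in RNA-seq, tested as their interaction. Here 0 of the 53 rose and 5 fell by edgeR, where 0.336% of all 108757 rows rose and 0.536% fell, and 14 passed unadjusted p under 0.05 against 10.6% of all rows. The median log2 change in TE was −0.049. It was 0.068 in #1 and −0.19 in #2, and the difference between lines passed the test for 26 of the 53 (24 higher in #1) against 6.27% of all rows, and for 17 without RNA-seq replicate 2 of #2. The RNA-seq counts enter both TE and the mRNA comparison, so the order of the lines in TE is not separate from that in mRNA.

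ENST00000260379.11 fell in TE in both lines. Its mRNA was 206 and 196 CPM in WT, 229 and 252 CPM in #1 and 237 and 243 CPM in #2. Its Ribo-seq level was 239 and 230 CPM in WT, 192 and 191 CPM in #1 and 222 and 207 CPM in #2. Both lines were thus above WT in mRNA and under WT in Ribo-seq, and the log2 change in TE was −0.49 ± 0.069 (adjusted p = 1.60e-05) for the mean, −0.58 in #1 and −0.40 in #2. ENST00000245458.10, with its higher mRNA in #1, had a TE change of −0.37 ± 0.085 (adjusted p = 0.0200), and its Ribo-seq levels of 95.2 and 86.7 CPM in #1 overlapped the 82.9 and 96.0 CPM of WT. Its call was lost in 8 of the 12 fits that left out 1 library: either WT RNA-seq library, replicate 2 of #1 RNA-seq or Ribo-seq, or any library of #2, with adjusted p up to 0.293. The count of 5 became 20, with 9 higher, without WT Ribo-seq replicate 2. It was 2 when either WT RNA-seq library, either RNA-seq library of #2, or replicate 2 of #1 RNA-seq, #1 Ribo-seq or #2 Ribo-seq was left out, and 3 without replicate 1 of #2 Ribo-seq.

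**Figure D4:**
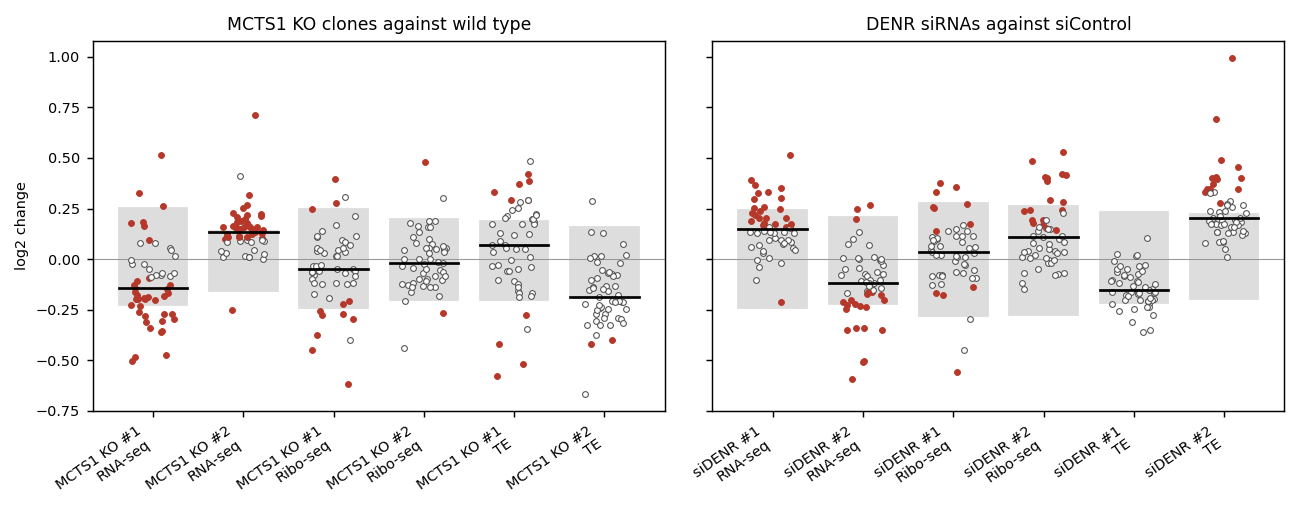
log2 change of the 53 ribosomal protein transcripts in each MCTS1 KO line against wild type (left) and with each DENR siRNA against siControl (right), in RNA-seq, Ribo-seq and TE. Each point is a transcript, filled red where its adjusted p was under 0.05, black lines are the medians of the 53, and grey boxes span the quartile range of all rows tested. In RNA-seq and TE the black lines of the paired clones or siRNAs lie on opposite sides of 0.

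Depletion of DENR was measured with 2 siRNAs, and these also parted. With siDENR #1, 25 of the 53 transcripts rose and 1 fell in RNA-seq against siControl, where 12.3% of all 131311 rows rose and 13.7% fell, and the median log2 change was 0.15. With siDENR #2, 3 rose and 19 fell, where 8.89% and 10.3% of all rows did, and the median was −0.12. The siRNAs differed from each other for 44 of the 53, with 43 higher for #1 and a median difference of 0.26, against 24.8% of all rows. The 26 calls with #1 became 11 without siControl replicate 1, the 22 with #2 became 9 to 12 without any 1 library of siControl or #2, and the 44 became 28 without replicate 2 of #2.

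For the mean of both siRNAs 6 rose and 5 fell, where 10.2% and 12.9% of all rows did, with a median of 0.018. By library totals in place of trimmed-mean scaling the split was 10 higher and 4 lower. ENST00000311528.9 had 209 and 216 CPM in siControl, 317 and 290 CPM with siDENR #1 and 261 and 251 CPM with #2. It rose with each siRNA, by 0.39 ± 0.052 on the log2 scale for the mean (adjusted p = 2.99e-08). ENST00000272317.10 had 105 and 118 CPM in siControl, 138 and 154 CPM with #1 and 133 and 131 CPM with #2, and rose by 0.32 ± 0.057 (adjusted p = 1.44e-05). For both transcripts the siControl libraries lay under all 4 siDENR libraries.

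The falls were those of siRNA #2 alone. ENST00000391857.9 had 312 and 329 CPM in siControl, 343 and 325 CPM with #1 and 232 and 220 CPM with #2, a mean log2 change of −0.22 ± 0.050 (adjusted p = 5.52e-04). ENST00000392514.9 had 365 and 389 CPM in siControl, 432 and 405 CPM with #1 and 257 and 243 CPM with #2, a mean change of −0.22 ± 0.050 (adjusted p = 5.43e-04). With #1 the latter was higher than siControl at 0.15 and with #2 lower at −0.59. The count of 11 became 7 without siControl RNA-seq replicate 1 or replicate 1 of siDENR #2, and 5 without siControl replicate 2. The calls of ENST00000391857.9 and ENST00000392514.9 were lost without siControl replicate 2.

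In Ribo-seq 18 of the 53 rose and 2 fell after DENR depletion, where 4.37% of all 108890 rows rose and 6.05% fell. The median log2 change was 0.069 with a range of −0.20 to 0.40. The siRNAs differed for 13 of the 53, against 11.1% of all rows, and for 6 or 7 without either library of #1 or replicate 1 of #2. ENST00000491306.5 rose from 106 and 108 CPM in siControl to 125 and 134 CPM with #1 and 158 and 150 CPM with #2 (0.40 ± 0.046, adjusted p = 1.13e-09). ENST00000272317.10, which also rose in mRNA, had 114 and 120 CPM in siControl, 152 and 151 CPM with #1 and 157 and 156 CPM with #2 (0.40 ± 0.044, adjusted p = 4.59e-10). In both, all 4 siDENR libraries lay above both siControl libraries.

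ENST00000245458.10 fell for the mean, but only through siRNA #1. It had 78.1 and 74.1 CPM in siControl, 52.8 and 50.6 CPM with #1 and 86.7 and 82.7 CPM with #2 (−0.20 ± 0.052, adjusted p = 0.00537). ENST00000196551.8 had 172 and 175 CPM in siControl, 156 and 154 CPM with #1 and 152 and 168 CPM with #2 (−0.14 ± 0.043, adjusted p = 0.0223). That call was lost in 6 of 12 alternative fits: by DESeq2, by library totals, and without either siControl library, replicate 2 of #1 or replicate 1 of #2, with adjusted p up to 0.228. Without siControl Ribo-seq replicate 1 the 20 calls became 12, all of them higher, and the call of ENST00000245458.10 was lost.

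TE after DENR depletion also differed between the siRNAs. For the mean 2 of the 53 rose and 0 fell by edgeR, where 0.244% of all 102515 rows rose and 0.125% fell, and 8 passed unadjusted p under 0.05 against 9.38% of all rows. With siDENR #2 alone 14 rose, where 0.485% of all rows did, all 53 changes were above 0 against 52.1% of all rows, and the median was 0.20. With siDENR #1 0 changed by edgeR, where only 137 of all 102515 rows rose and 85 fell. For #1, 25 of the 53 passed unadjusted p under 0.05 against 10.6% of all rows. Of its 53 values, 49 were below 0 against 49.2% of all rows, and the median was −0.16. The 14 rises with #2 became 5 to 8 without siControl RNA-seq replicate 2, siControl Ribo-seq replicate 1, either #2 RNA-seq library or #2 Ribo-seq replicate 1. With #1 the 0 calls became 5 without its RNA-seq replicate 2. The siRNAs differed for 39 of the 53, all lower with #1, against 1.02% of all rows, and the median log2 difference was −0.37. Without #2 RNA-seq replicate 2 the 39 became 23. As for MCTS1, the mRNA values above stand in the denominator of these changes.

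ENST00000260379.11 had the largest TE rise after DENR depletion and, as given above, the largest of the 5 TE falls in MCTS1 KO that passed the test. Its mRNA was 299 and 324 CPM in siControl, 342 and 314 CPM with #1 and 228 and 210 CPM with #2. Its Ribo-seq level was 192 and 175 CPM in siControl, 200 and 197 CPM with #1 and 257 and 256 CPM with #2. Only #2 lay apart in both assays, and the log2 change in TE was 0.51 ± 0.068 (adjusted p = 5.38e-06) for the mean, 0.024 with #1 and 0.997 with #2. ENST00000392514.9 had nearly level Ribo-seq values of 153 and 137 CPM in siControl, 154 and 145 CPM with #1 and 154 and 158 CPM with #2, and a TE change of 0.29 ± 0.068 (adjusted p = 0.0369). The count of 2 became 1 by DESeq2, with no filter on low counts, and without any 1 of 8 libraries: either siControl RNA-seq library, siControl Ribo-seq replicate 2, siDENR #1 Ribo-seq replicate 1, or any of the 4 siDENR #2 libraries. In each of these fits it was the call of ENST00000392514.9 that was lost, with adjusted p up to 0.340.

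The 2 control conditions differed from each other too. In RNA-seq siControl against WT, 25 of the 53 were higher and 11 lower, where 16.0% of all 128418 rows were higher and 16.2% lower, with a median log2 difference of 0.086. In Ribo-seq 0 were higher and 22 lower by edgeR, where 4.86% of all 107444 rows were higher and 4.73% lower, 32 passed unadjusted p under 0.05 (22.3% of all rows did), and the median was −0.24. Transfection and experiment cannot be told apart in this difference. It concerns the same control libraries as the comparisons above, so MCTS1 KO and DENR depletion were not set against each other.

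ENST00000260379.11 had the largest mRNA difference, with 206 and 196 CPM in WT and 299 and 324 CPM in siControl (0.63 ± 0.047, adjusted p = 2.67e-19). ENST00000222247.10 had 138 and 128 CPM in WT and 187 and 179 CPM in siControl (0.46 ± 0.047, adjusted p = 3.66e-13). ENST00000311111.11 was lower, with 122 and 124 CPM against 94.8 and 96.2 CPM (−0.37 ± 0.046, adjusted p = 5.87e-10). ENST00000352983.7 was lower too, with 289 and 286 CPM in WT and 229 and 248 CPM in siControl (−0.27 ± 0.047, adjusted p = 2.68e-06). The control groups did not overlap for any of these transcripts.

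In Ribo-seq ENST00000361436.10 had 58.3 and 65.3 CPM in WT and 41.1 and 39.0 CPM in siControl (−0.63 ± 0.099, adjusted p = 2.90e-05). ENST00000491306.5 had 153 and 171 CPM in WT and 106 and 108 CPM in siControl (−0.61 ± 0.086, adjusted p = 5.12e-06). WT lay above siControl in both. The RNA-seq count of 36 became 21 without WT replicate 2. The Ribo-seq count of 22 became 36 without WT replicate 1, and 7 and 6 without siControl replicates 1 and 2.

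TCP-seq in WT cells depended on the pair of libraries. The library names put WT libraries 1 and 2 just before the eIF2D KO libraries and WT libraries 3 and 4 just before the MCTS1 KO libraries, and each KO was set against its own pair. Between the WT pairs, 14 of the 53 were higher in 1 and 2 and 0 lower by edgeR, where 1.88% of all 50991 rows were higher and 0.702% lower. At unadjusted p under 0.05 there were 33 of the 53 and 13.8% of all rows. Of the 53 differences, 52 were above 0 against 49% of all rows, with a median of 0.32. This comparison was added after the shares of the libraries had been seen. ENST00000270625.7 had 147 and 157 CPM in WT libraries 1 and 2 and 64.5 and 72.7 CPM in 3 and 4 (1.15 ± 0.13, adjusted p = 2.97e-12), and ENST00000262584.7 had 217 and 238 CPM against 129 and 137 CPM (0.77 ± 0.12, adjusted p = 8.26e-07). The count of 14 became 6, 8 and 3 without WT libraries 1, 2 and 3, and 8 by DESeq2.

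For eIF2D, the protein in the title of the series, the medians of the ribosomal protein transcripts in the 2 KO lines lay on opposite sides of WT libraries 1 and 2. In eIF2D KO #1, 9 of the 53 fell against WT libraries 1 and 2, where 1.36% of all rows fell, and all 53 changes were below 0, against 49.8% of all rows, with a median log2 change of −0.25. In eIF2D KO #2, 4 rose, where 1.56% of all rows did, 43 changes were above 0 against 50.1% of all rows, and the median was 0.14. The lines differed from each other for 37 of the 53, all lower in #1, with a median of −0.38 and 8.23% of all rows as background. All 53 differences between the lines lay between −0.70 and −0.21, where 48.6% of all rows were below 0. The 37 became 20 without replicate 1 of #1, 14 without replicate 2 of #2 and 8 when all 4 WT libraries were taken as 1 control group.

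For the mean of both eIF2D KO lines 0 of the 53 rose and 2 fell by edgeR, where 0.604% of all rows rose and 1.01% fell, and 12 passed unadjusted p under 0.05 against 12.5% of all rows. ENST00000392514.9 had 164 and 185 CPM in WT libraries 1 and 2, 115 and 112 CPM in eIF2D KO #1 and 138 and 158 CPM in #2 (−0.41 ± 0.10, adjusted p = 0.0127). ENST00000343262.9, the most abundant of the 53 in WT TCP-seq, had 345 and 406 CPM in WT libraries 1 and 2, 240 and 278 CPM in #1 and 282 and 348 CPM in #2 (−0.37 ± 0.10, adjusted p = 0.0253). The libraries of #1 lay under both WT libraries in each, while those of #2 lay nearer to WT.

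The direction of the mean and of line #1 changed with the control. Against WT libraries 3 and 4 the medians of lines #1 and #2 were 0.075 and 0.50, both above 0, and against all 4 WT libraries they were −0.10 and 0.32. The 9 falls in #1 became 1 without WT library 2, 3 without replicate 1 of #1, 4 by DESeq2, 5 by library totals and 1 against all 4 WT libraries. The 4 rises in #2 became 0 or 1 without WT library 1, WT library 2 or replicate 2 of #2 and 1 by DESeq2, but 7 by library totals, 15 against all 4 WT libraries and 40 against WT libraries 3 and 4.

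For the mean of the lines, the median of the 53 was −0.039 against WT libraries 1 and 2, 0.12 against all 4 WT libraries and 0.29 against WT libraries 3 and 4, and 0.027 by library totals. Against WT libraries 3 and 4, 23 rose and 1 fell. The share of all rows called against that pair is not given, so this count cannot be set against a background. The 2 calls became 0 by DESeq2, 1 against all 4 WT libraries, and 0 without WT library 2 or without replicate 1 of eIF2D KO #2. Without WT library 2 the median was 0.051. The calls of ENST00000343262.9 and ENST00000392514.9 were both lost by DESeq2, against all 4 WT libraries or WT libraries 3 and 4, and without WT library 2 or replicate 1 of eIF2D KO #2. ENST00000343262.9 also lost its call without replicate 1 of eIF2D KO #1.

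MCTS1 KO TCP-seq libraries stood above WT libraries 3 and 4 in both lines. For the mean of the lines 20 of the 53 rose and 0 fell by edgeR, where 7.28% of all rows rose and 6.56% fell, and 29 passed unadjusted p under 0.05 against 27.5% of all rows. The median log2 change was 0.26, with 15 rises in #1 (3.17% of all rows) and 13 in #2 (10.4% of all rows). The lines differed for 2 of the 53, against 3.44% of all rows. ENST00000262584.7 had 129 and 137 CPM in WT libraries 3 and 4, 201 and 179 CPM in MCTS1 KO #1 and 184 and 185 CPM in #2 (0.51 ± 0.11, adjusted p = 2.05e-04). ENST00000311549.10 had 26.5 and 25.3 CPM in these WT libraries, 36.5 and 36.7 CPM in #1 and 37.7 and 34.7 CPM in #2 (0.49 ± 0.17, adjusted p = 0.0334).

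These rises were relative to WT libraries 3 and 4 and did not hold against the other pair. WT libraries 1 and 2 had 217 and 238 CPM of ENST00000262584.7 and 45.8 and 30.2 CPM of ENST00000311549.10, so the MCTS1 KO levels lay under the former and between the latter. Against WT libraries 1 and 2 the median of the 53 was −0.069, with 5 lower and none higher by edgeR. Against all 4 it was 0.083, with 1 transcript called. For neither control is the share of all rows called given, so these counts have no background here. The 20 calls became 6 by DESeq2, 2 and 8 without WT libraries 3 and 4, and 10 without replicate 1 of MCTS1 KO #1. Within the lines, the 15 rises in #1 became 2 without its replicate 1 and 1 without WT library 3, and the 13 in #2 became 5 and 8 without its replicates 1 and 2 and 2 without WT library 3. The call of ENST00000262584.7 was lost without WT library 3. That of ENST00000311549.10 was lost without WT library 3 or 4, either library of #1 or replicate 1 of #2, by DESeq2 and with no filter on low counts. In these TCP-seq data the share on the ribosomal protein transcripts was 0.835% to 0.874% in the 4 MCTS1 KO libraries, between the 0.715% and 0.709% of WT libraries 3 and 4 and the 0.877% and 0.899% of WT libraries 1 and 2.

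**Figure D5:**
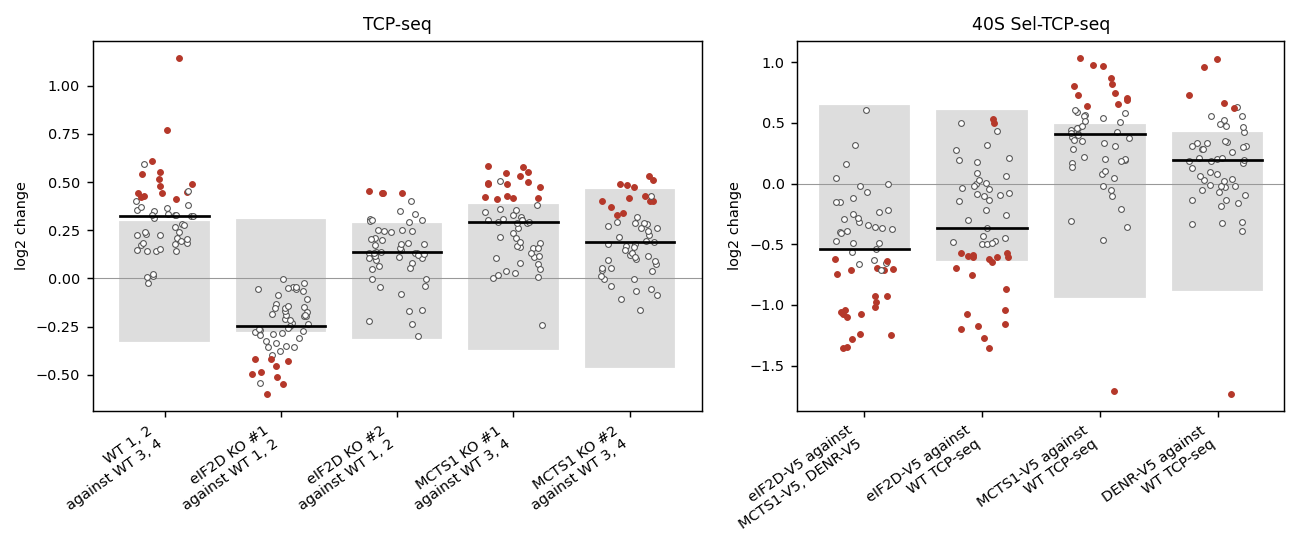
log2 change of the 53 ribosomal protein transcripts in TCP-seq (left) and 40S Sel-TCP-seq (right), drawn as points filled red where adjusted p was under 0.05, with black lines for the medians of the 53 and grey boxes for the quartile range of all rows. WT libraries 1 and 2 lie above 3 and 4 for 52 of 53 transcripts, eIF2D KO #1 is below 0 for all 53, and eIF2D-V5 is below the other selected proteins for 49 of 53.

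Selection of 40S complexes through the tagged proteins asked which mRNAs each protein is found on. Complexes selected through eIF2D-V5 held a smaller share of ribosomal protein fragments than those selected through MCTS1-V5 and DENR-V5. Against the mean of these, 0 of the 53 were higher and 21 lower by edgeR, where 12.8% of all 12135 rows were higher and 9.32% lower, and 31 passed unadjusted p under 0.05 against 36.9% of all rows. The median log2 difference was −0.54 with a range of −1.36 to 0.60, and 49 of 53 were below 0 against 48.7% of all rows. Against MCTS1-V5 alone 10 were lower (2.99% of all rows) and against DENR-V5 alone 17 (9.14% of all rows). DENR-V5 against MCTS1-V5 gave 0 of the 53 by edgeR and 3 by unadjusted p under 0.05 (6.77% of all rows), with differences from −0.70 to 0.48 and a median of −0.15. The share of all rows called between these proteins is not given, so the 0 cannot be set against a background.

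ENST00000356464.10 had 16.1 and 12.5 CPM with eIF2D-V5, 34.0 and 29.3 CPM with MCTS1-V5 and 35.6 and 50.7 CPM with DENR-V5 (−1.36 ± 0.36, adjusted p = 0.0144). These levels rest on 11 to 34 counts per library. ENST00000361436.10 had 42.3 and 40.2 CPM with eIF2D-V5, 102 and 82.8 CPM with MCTS1-V5 and 113 and 136 CPM with DENR-V5 (−1.35 ± 0.27, adjusted p = 0.00410). The eIF2D-V5 libraries lay under the other 4 in both. The 21 calls became 12 without DENR-V5 replicate 2, 6 without eIF2D-V5 replicate 2, 8 by DESeq2 and 4 with no filter on low counts, and the median was −0.40 by library totals, where all rows shifted to a median of 0.18. Against MCTS1-V5 alone the 10 became 1 without eIF2D-V5 replicate 2, 6 without DENR-V5 replicate 2, and 0 by DESeq2 or with no filter. Against DENR-V5 alone the 17 became 3 and 1 without DENR-V5 replicates 1 and 2, 5 without eIF2D-V5 replicate 2, 8 by library totals, and 4 by DESeq2 or with no filter. The call of ENST00000356464.10 was lost by DESeq2, with no filter, and without DENR-V5 replicate 2 or eIF2D-V5 replicate 2.

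Each selection was also set against unselected WT TCP-seq, where the assay and the selection differ together. By their titles, the selected libraries also come with a V5-tagged protein and the WT libraries do not. With eIF2D-V5, 2 of the 53 were higher and 19 lower, where 19.0% of all 35013 rows were higher and 16.9% lower, and the median log2 difference was −0.36. With MCTS1-V5, 12 were higher and 1 lower, where 6.86% and 7.92% of all rows were, and the median was 0.41. With DENR-V5, 5 were higher and 1 lower, where 3.95% and 6.83% of all rows were, and the median was 0.20. The 3 share the same 4 WT libraries, and the median of all rows was −0.027, −0.11 and −0.12. These 4 join the WT pairs that differed for the same transcripts, so the medians of the 53 also depend on the pair. With WT libraries 1 and 2 as effective control, in the replicate block given at the end, all 3 medians were lower.

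ENST00000301821.11 was lower with eIF2D-V5, at 73.6 and 80.8 CPM against 188, 208, 196 and 204 CPM in WT TCP-seq (−1.35 ± 0.22, adjusted p = 1.15e-06). ENST00000361436.10, also lower than with the other proteins, had 42.3 and 40.2 CPM against 98.5, 103, 101 and 97.4 CPM (−1.28 ± 0.23, adjusted p = 1.01e-05). Neither overlapped WT TCP-seq. ENST00000262584.7 was higher with eIF2D-V5, at 225 and 290 CPM against 217, 238, 129 and 137 CPM in WT, where the groups overlap (0.53 ± 0.21, adjusted p = 0.0420). ENST00000202773.13 was higher as well, at 192 and 212 CPM against 161, 148, 115 and 150 CPM (0.50 ± 0.20, adjusted p = 0.0455). With MCTS1-V5, ENST00000262584.7 was also called higher by edgeR, at 0.75 (adjusted p = 0.0163). ENST00000202773.13 was at 0.58 with MCTS1-V5 (adjusted p = 0.0605). With DENR-V5 the values were 0.52 and 0.19, without a call, so these differences were not particular to eIF2D-V5. Neither of the eIF2D-V5 calls was stable. That of ENST00000202773.13 was lost in 11 of 16 alternative fits (7 of the 10 that left out 1 library) with adjusted p up to 0.351, and that of ENST00000262584.7 in 9 of 16 (5 of the 10) with adjusted p up to 0.511. By library totals the split was 0 higher and 19 lower. Both calls were lost without either DENR-V5 library, WT library 3 or eIF2D-V5 replicate 2. ENST00000262584.7 also lost its call without WT library 4, and ENST00000202773.13 without WT library 2, MCTS1-V5 replicate 2 or eIF2D-V5 replicate 1.

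ENST00000311111.11 was higher with MCTS1-V5 and with DENR-V5. It had 559 and 434 CPM with MCTS1-V5, 495 and 509 CPM with DENR-V5 and 274, 270, 230 and 258 CPM in WT TCP-seq, with no overlap. Its log2 difference from TCP-seq was 0.98 ± 0.21 (adjusted p = 6.29e-04) for MCTS1-V5 and 0.96 ± 0.21 (adjusted p = 0.00107) for DENR-V5. With eIF2D-V5 it had 242 and 178 CPM, at or under the WT range. ENST00000307961.11 had 164 and 274 CPM with MCTS1-V5 against 114, 143, 97.4 and 90.4 CPM in WT (1.04 ± 0.22, adjusted p = 5.23e-04). ENST00000321153.9 had 216 and 196 CPM with DENR-V5 against 114, 117, 88.7 and 85.0 CPM (1.03 ± 0.22, adjusted p = 6.77e-04). These 4 calls were lost with no filter on low counts. ENST00000311111.11 also lost its call without MCTS1-V5 replicate 1 for MCTS1-V5 and without either DENR-V5 library for DENR-V5, ENST00000307961.11 without MCTS1-V5 replicate 2 and ENST00000321153.9 without DENR-V5 replicate 1. With MCTS1-V5, ENST00000321153.9 was also called higher by edgeR, at 148 and 209 CPM (0.87 ± 0.22, adjusted p = 0.00414). ENST00000307961.11 was at 0.63 with DENR-V5 (adjusted p = 0.0596) and 0.50 with eIF2D-V5 (adjusted p = 0.0551), without a call.

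ENST00000343262.9 was the 1 transcript lower with both MCTS1-V5 and DENR-V5, and it was lower with eIF2D-V5 as well. It had 80.3 and 114 CPM with MCTS1-V5, 93.8 and 106 CPM with DENR-V5 and 167 and 128 CPM with eIF2D-V5, all under the 276 to 406 CPM of WT TCP-seq. Its log2 difference was −1.71 ± 0.25 (adjusted p = 6.73e-07) for MCTS1-V5 and −1.73 ± 0.25 (adjusted p = 4.02e-07) for DENR-V5. For eIF2D-V5 it was −1.17 ± 0.22 (adjusted p = 1.65e-05). This is the same transcript whose Ribo-seq level was far under its RNA-seq level.

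The selected libraries were shallow and these counts moved with single libraries and with scaling. For eIF2D-V5 the 21 calls became 11 and 7 without its replicates 1 and 2. For MCTS1-V5 the 13 became 2 without its replicate 2, 7 without either DENR-V5 library, and 8 and 6 without WT libraries 3 and 4. DESeq2 gave 7, no filter on low counts 1, and library totals 5 (4 higher, 1 lower), with medians of 0.17 with no filter and 0.25 by library totals. For DENR-V5 the 6 became 1 and 2 without its replicates 1 and 2, 1 with no filter and 3 by library totals (2 higher, 1 lower), and its median was −0.00897 by library totals and −0.013 with no filter, so its direction depends on the scaling. By library totals the median of all rows moved to −0.27 for MCTS1-V5 and −0.33 for DENR-V5.

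Over the 12 comparisons of a KO, siRNA or selection, 2 of the 53 transcripts (3.77%) were never called, 25 (47.2%) were called in 1 or 2 comparisons and 26 (49.1%) in 3 or more. Among the 11428 rows tested in all 12 comparisons these shares were 9.53%, 41.7% and 48.8%, and the median was 2 calls both there and among the 53. The 2 never called were ENST00000264258.8 and ENST00000396651.8. The most calls for a transcript were 7, held by ENST00000260379.11, ENST00000392514.9 and ENST00000491306.5. Each of these 3 had calls in both directions: 3 higher and 4 lower for ENST00000260379.11 and ENST00000491306.5, and 2 higher and 5 lower for ENST00000392514.9. These 5 were picked by their number of calls, several comparisons share control libraries, and TE shares counts with RNA-seq and Ribo-seq.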

How the data were processed

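Whole-number counts per transcript were made and deposited by the authors for 226882 transcripts in 42 libraries. The submitters' processing notes name STAR, featureCounts, Subread and cutadapt, and the builds GRCh38.p13 and hg38. Groups and replicate numbers came from the labels. The 53 transcripts, the lists and the tests were chosen with earlier results of these data known.

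Counts were tested per transcript over the whole table with edgeR 4.0.16 in R 4.3.3 (robust quasi-likelihood fit, TMM factors, filterByExpr at 10 counts), and calls were made at a Benjamini-Hochberg adjusted p under 0.05, after a test on simulated data. "Rose", "fell", "higher" and "lower" in counts of transcripts mean past this threshold. A comparison was the mean of both lines, siRNAs or reference proteins against the control, with each also tested alone. TE was the interaction of group and assay. The 12 TCP-seq libraries shared a fit. Standard errors were taken as the log2 change divided by the root of its F statistic.

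The plan named 6 transcripts per direction, those with the largest changes past the threshold. Without a table pairing identifiers with genes, 2 per direction are named, with the extremes of level, and the planned split by subunit and the lists of other genes were not run. Alternatives were DESeq2 1.42.0, other scalings, filters, controls, a replicate block, identical rows kept once and leaving out each library. Counts from alternatives are given without the share of all rows called in the same fit. They show how a count moved, not whether it passed the background.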

Additional observations from a re-analysis of the deposited data

Results flagged for a closer look

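The difference between the 2 clones or siRNAs of a target was itself tested, and it passed for several ribosomal protein transcripts in 8 comparisons. In RNA-seq the MCTS1 KO lines differed for 49 of the 53 and the DENR siRNAs for 44, against 45.8% and 24.8% of all rows tested. In Ribo-seq they differed for 12 and 13, against 18.6% and 11.1% of all rows. In TE they differed for 26 and 39, against 6.27% and 1.02%. In TCP-seq the eIF2D KO lines differed for 37 and the MCTS1 KO lines for 2, against 8.23% and 3.44%.

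In the 4 WT TCP-seq libraries, the share of counts on the ribosomal protein transcripts and the level of each named transcript were screened for a library far from the other 3, which gave 26 screens. ENST00000260379.11 had such a library at 300 CPM (299.7), and ENST00000356464.10 had one at 22.6 CPM. Chance alone flags about 1 in 20 such groups.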

How the results depend on the processing

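Every count of transcripts past the threshold and every median of the 53 was recomputed in 221 alternative fits over 15 comparisons, of which 195 medians and 149 counts stayed near their value and 9 medians turned sign by more than the SD between replicates. The cause was not tested. Of 598 alternative fits for the 42 named values, 509 kept their call, 85 lost it and 4 turned sign.

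Direction depended on the TCP-seq control. The MCTS1 KO median was 0.083 against all 4 WT libraries, −0.069 against the other pair and −0.070 with a replicate block over all 4, with 1, 5 and 5 transcripts called and 6 by DESeq2. Replicate numbers 3 and 4 occur only in WT, so in this block WT libraries 3 and 4 each had a term of their own. The block therefore had WT libraries 1 and 2 as its effective control and is not separate from the other pair. With the other pair and with the block, line #1 had medians of −0.026 and −0.027, line #2 −0.116 and −0.114, ENST00000262584.7 −0.26 and −0.26, and ENST00000311549.10 −0.099 and −0.086. The eIF2D KO median was 0.12 against all 4, 0.29 against the other pair and 0.027 by library totals, and line #1 was 0.075 against the other pair. Its called count was 1, 24, 0 by DESeq2 and 1 with a replicate block.

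In Sel-TCP-seq, eIF2D-V5 against the other proteins had medians of −0.40 by totals and −0.37 with no filter, and 8 (DESeq2) and 4 (no filter) called. MCTS1-V5 against TCP-seq had medians of 0.25 by totals, 0.17 with no filter and 0.28 with a replicate block, and 7 (DESeq2), 5 (totals), 1 (no filter) and 5 (block) called. DENR-V5 had medians of −0.00897, −0.013 and 0.059, and 3 (totals) and 1 (no filter) called. eIF2D-V5 had a median of −0.52 with the block. In the blocks against TCP-seq, too, WT libraries 1 and 2 were the effective control. The siDENR Ribo-seq median was 0.091 by totals and 0.057 with no filter. MCTS1 KO Ribo-seq called 9 with no filter, siDENR TE 1 by DESeq2 and 1 with no filter, and the WT pairs 8 by DESeq2.

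Leaving out each library gave ranges for the median and the number called. For RNA-seq they were −0.038 to 0.014 and 14 to 29 (MCTS1 KO), 0.0050 to 0.042 and 5 to 16 (siDENR), and 0.073 to 0.11 and 21 to 35 (siControl). For Ribo-seq they were −0.080 to 0.018 and 0 to 21, 0.049 to 0.067 and 12 to 19, and −0.28 to −0.18 and 6 to 36. For TE they were −0.079 to −0.019 and 2 to 20 (MCTS1 KO), and −0.0012 to 0.036 and 1 to 2 (siDENR). For TCP-seq they were 0.18 to 0.29 and 2 to 23 (MCTS1 KO), −0.095 to 0.051 and 0 to 3 (eIF2D KO), and 0.27 to 0.36 and 3 to 20 (WT pairs). For selection they were −0.63 to −0.48 and 6 to 24 (eIF2D-V5 against the other proteins), −0.45 to −0.29 and 7 to 26 (eIF2D-V5 against TCP-seq), 0.091 to 0.44 and 2 to 16 (MCTS1-V5), and 0.13 to 0.25 and 1 to 8 (DENR-V5). Without WT Ribo-seq replicates 1 and 2 in turn the MCTS1 KO Ribo-seq medians were −0.089 and −0.073 (#1, #2), then 0.00077 (#1) and 0.040 (#2).

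Replicate numbers pair no samples by the labels. Deviations of same-numbered libraries correlated at −0.081 to 0.16 in RNA-seq, Ribo-seq and TCP-seq and at 0.091 to 0.36 in Sel-TCP-seq, and the replicate block moved no other count of calls by more than 1.5 times. The shallow Sel-TCP-seq libraries limit all selection results: the lowest count of a ribosomal protein transcript there was 7.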
